A study of Homo sapiens with 48 samples.

Results

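DNA glycosylases are the enzymes that open base excision repair. Each recognises a set of damaged or mismatched bases, turns the base out of the helix and cuts its bond to the sugar. An AP endonuclease then cuts the abasic site, a polymerase fills the gap and a ligase seals it. The 10 genes described here are NTHL1, NEIL1, NEIL2, NEIL3, OGG1, MUTYH, UNG, TDG, MPG and SMUG1, taken by symbol from the 60610 genes of the count table, and all 10 were among the 19626 genes tested. NTHL1 was chosen by its measured level in these libraries, which fell under joint stimulation at 6 h, so its 6 h values are given as a description, without a test.

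The cells were 1 HEK293 clone, a human embryonic kidney line, that stably expresses AT1R, the G-protein-coupled receptor of angiotensin II (AII). It was obtained by limiting dilution after cotransfection with a puromycin resistance plasmid, under puromycin and losartan, an AT1R blocker. In serum-free DMEM the cells received no stimulus (control), AII (1 nM), EGF (10 µg/L), the ligand of the EGFR, or both (AII + EGF), for 6 h or 24 h, and poly(A) RNA was sequenced. The deposited design holds 48 libraries, 6 for each of the 8 groups, and asks how the EGFR and AT1R pathways act together on transcription.

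Of these libraries 10 were left out of the main values. In 4 pairs the libraries differed by less than the sampling noise, with a chi-square per degree of freedom of 0.397 to 0.505 where the next of all 1128 pairs reached 2.02. The labels of 3 of these pairs differed (control 6 h and EGF 24 h, EGF 6 h and AII + EGF 6 h, control 6 h and AII 24 h), and the fourth pair held replicates 2 and 6 of EGF 6 h. In a further 2 libraries the label and the transcriptome disagreed. On a scale where 0 is the mean of AII 6 h and 1 that of AII + EGF 6 h, over 1480 genes that hold none of the members, AII 6 h replicate 6 took the position 0.859 and AII + EGF 6 h replicate 6 the position -0.00681. The remaining 38 libraries were 4 control, 5 AII, 3 EGF and 4 AII + EGF libraries at 6 h, and 6, 5, 5 and 6 at 24 h. Their totals averaged 22.3 ± 3.02 M counts (SD, n = 38), and gene levels are given as CPM, counts scaled to library size with TMM factors. The labels do not say whether replicates came from separate cultures, so p-values measure the spread between these libraries, which may be technical. For markers of cell identity the CPM were scaled by library totals alone, without TMM factors. VIM (161 to 562 CPM) and NEFM (2585 to 9353 CPM), both typical of HEK293 cells, were found throughout. PAX2 (0.264 to 3.66 CPM) and INA (2.82 to 16.7 CPM), listed as markers of the same cells, were low. The receptor gene AGTR1 reached 3913 to 15975 CPM. The kidney tubule marker UMOD had 0 counts in all 38 libraries, and PTPRC, PECAM1 and ALB did not exceed 0.411 CPM.

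The members stood at very different levels in unstimulated cells. Per kilobase of exon, the control 6 h mean was highest for UNG (34.97 CPM per kb), followed by TDG (19.3 CPM per kb) and NEIL3 (16 CPM per kb). MPG (8.65 CPM per kb), NTHL1 (8.55 CPM per kb) and SMUG1 (6.03 CPM per kb) formed the middle of the range. NEIL2 (3.94 CPM per kb), NEIL1 (2.56 CPM per kb), OGG1 (2.37 CPM per kb) and MUTYH (0.267 CPM per kb) were lowest. Exon lengths were the union of all annotated exons, so a gene with many rare exons is placed too low. In poly(A) RNA of whole cultures, fewer cells that express a gene and less RNA per cell cannot be told apart.

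NTHL1 lies on chromosome 16 (GRCh38, 2039820 to 2047834, minus strand) and starts 151 bases from TSC2, which runs the other way and whose transcribed span does not overlap it. OGG1 lies on chromosome 3 (9749952 to 9791070, plus strand) and MPG on chromosome 16 (77007 to 85846, plus strand). The promoter windows of these 3 genes are shown because they are the members that fell under AII + EGF at 6 h. Each window runs from 250 bases before to 50 bases after an annotated gene start (RefSeq, GRCh38.p14), read 5′ to 3′ on the gene's strand, and capitals mark a match to the E-box CACGTG. The windows are chr16:2047785-2048084 for NTHL1, chr3:9749702-9750001 for OGG1 and chr16:77975-78274 for MPG. The MPG window lies wholly inside the gene span given above, so the start used for MPG is an internal one and not the first base of that span.
NTHL1: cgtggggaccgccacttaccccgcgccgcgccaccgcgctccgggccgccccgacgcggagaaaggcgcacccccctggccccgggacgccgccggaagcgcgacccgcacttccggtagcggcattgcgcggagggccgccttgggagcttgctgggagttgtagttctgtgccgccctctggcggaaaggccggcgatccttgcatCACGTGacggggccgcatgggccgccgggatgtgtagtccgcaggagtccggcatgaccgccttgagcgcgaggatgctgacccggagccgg
OGG1: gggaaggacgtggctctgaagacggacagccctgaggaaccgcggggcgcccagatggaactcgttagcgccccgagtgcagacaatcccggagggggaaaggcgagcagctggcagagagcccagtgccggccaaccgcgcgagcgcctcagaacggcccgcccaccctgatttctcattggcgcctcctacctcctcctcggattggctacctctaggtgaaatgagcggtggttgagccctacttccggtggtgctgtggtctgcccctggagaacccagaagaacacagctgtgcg
MPG: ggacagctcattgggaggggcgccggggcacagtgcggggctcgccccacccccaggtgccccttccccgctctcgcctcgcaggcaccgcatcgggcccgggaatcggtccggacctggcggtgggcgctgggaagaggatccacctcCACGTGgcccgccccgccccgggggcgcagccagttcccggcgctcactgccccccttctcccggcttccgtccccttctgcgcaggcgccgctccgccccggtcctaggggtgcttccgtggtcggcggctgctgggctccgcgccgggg

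The NTHL1 window held 1 E-box, which reads the same on both strands and begins at position -42 from the start, and the start of TSC2 also lies inside this window. The MPG window held 1 E-box at position -101 from the internal start used for this gene, and the OGG1 window none. Both strands were also searched for the AP-1 motif TGANTCA, the CRE TGACGTCA, the EGR motif GCGTGGGCG, the E2F motif TTTCGCGC, the forkhead motif GTAAACA and the CArG box, and none of these was found in the 3 windows. The SP1 motif GGGCGG occurred 2 times in the NTHL1 window, 1 time in the OGG1 window and 3 times in the MPG window. Windows were at hand for 8 of the 10 members (for NEIL2 and SMUG1 none was used here), and an E-box also stood in the TDG window and in 1 of 2 UNG windows, with an EGR match in TDG and an AP-1 match in 1 of 3 MUTYH windows. Among all 35116 windows, 7.26% held the E-box, 45% the SP1 motif, 7.71% the AP-1 motif and 0.795% the EGR motif. Among protein-coding windows the shares were 8.34%, 56.3%, 6.15% and 1.05%. The other motifs, absent from the 3 windows, were rare there too: 2.26% for the CRE, 0.712% for E2F, 2.85% for forkhead and 1.25% for the CArG box. The NTHL1 and MPG windows were rich in G and C (73.3% and 77%) against a median of 62.3% over protein-coding windows. A match of letters is a description and not a binding site.

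NTHL1, the glycosylase for thymine glycol and other oxidised pyrimidines, had a lower mean after either stimulus at 6 h and the lowest after both. The 4 control libraries at 6 h stood at 27.9, 21.3, 15.8 and 18.1 CPM. The 5 AII libraries stood at 13.7, 13.05, 14.9, 15.4 and 16.8 CPM, and their range overlapped that of the controls at its upper end. Levels within runs of sample titles, where AII was not always below control, are given further below. The 3 EGF libraries stood at 7.38, 7.63 and 9.93 CPM, below every control and every AII library. The 4 AII + EGF libraries stood at 3.27, 3.32, 3.16 and 4.18 CPM, below every EGF library, with 59 to 81 counts each. The means were 20.8 ± 5.28 CPM in control (SD, n = 4), 14.8 ± 1.46 CPM with AII (n = 5), 8.31 ± 1.40 CPM with EGF (n = 3) and 3.48 ± 0.472 CPM with AII + EGF (n = 4).

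On the log2 scale the fitted change of NTHL1 at 6 h was -0.49 ± 0.18 (SE) with AII, -1.32 ± 0.21 with EGF and -2.57 ± 0.21 with AII + EGF, all against the same control libraries. By the fit, EGF lay 2.50-fold and AII + EGF 5.96-fold below control. The interaction term, the joint change minus the sum of both single changes, was -0.76 ± 0.28. By size of change, NTHL1 was the first of the 63 genes that fell with EGF (0.321% of those tested) and the second of the 1085 that fell with AII + EGF. The gene was chosen by its 6 h fall, so these ranks only describe it and are fixed in part by that choice. The control library at 27.9 CPM had the largest weight. Without it the change was -0.32 with AII, -1.15 with EGF and -2.40 with AII + EGF. Leaving out any other library gave joint changes down to -2.68.

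**Figure D1:**
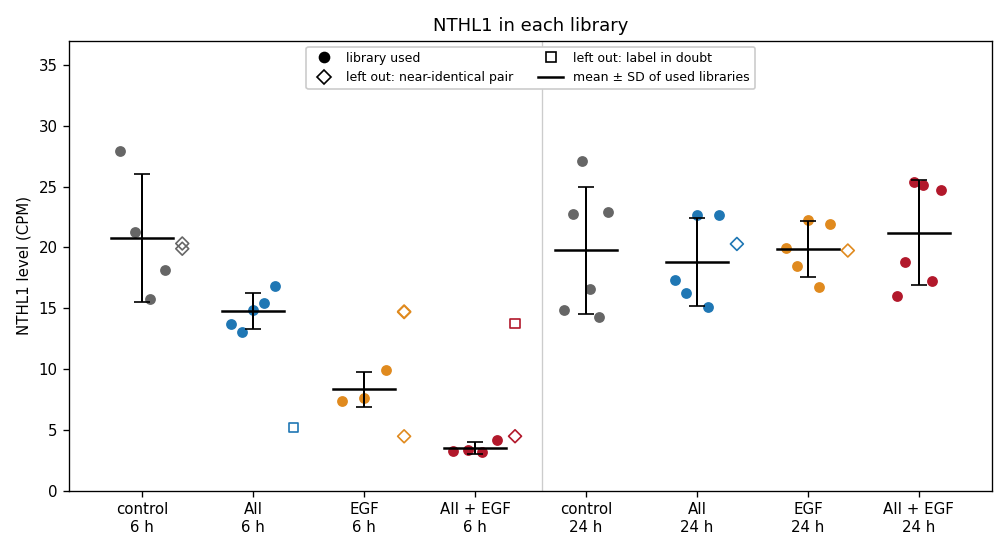
NTHL1 level in CPM (vertical axis, starting at 0) for every library of the 8 groups (horizontal axis, by stimulus and time). Filled circles are the 38 libraries used, with their mean ± SD as black bars, and open symbols are the 10 libraries left out. The 4 AII + EGF libraries at 6 h sit between 3.16 and 4.18 CPM, and all groups at 24 h lie in the range of the controls.

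At 24 h NTHL1 was not called under any stimulus, and its levels lay in the range of the controls. The 6 controls ranged from 14.3 to 27.1 CPM with a median of 19.7 CPM, and the 6 AII + EGF libraries from 16.02 to 25.4 CPM with a median of 21.8 CPM. The 5 AII libraries stood at 17.3, 16.3, 22.6, 15.1 and 22.6 CPM and the 5 EGF libraries at 19.9, 18.5, 22.3, 16.8 and 21.9 CPM, so that all 4 groups overlapped. The log2 change was -0.07 ± 0.16 with AII (adjusted p = 1.0, edgeR), 0.01 ± 0.16 with EGF (adjusted p = 0.988) and 0.10 ± 0.15 with AII + EGF (adjusted p = 0.685). In control cells the log2 difference of 24 h against 6 h was -0.07 ± 0.17. It is given without a test, because the 6 h controls entered the choice of the gene. The joint response was 2.68 ± 0.25 log2 units higher at 24 h than at 6 h, which the choice of the gene fixes in part.

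Ordered by their means, the NTHL1 levels ran from AII + EGF 24 h (21.2 CPM) over control 6 h (20.8 CPM), EGF 24 h (19.9 CPM), control 24 h (19.7 CPM) and AII 24 h (18.8 CPM) to AII 6 h (14.8 CPM), EGF 6 h (8.31 CPM) and AII + EGF 6 h (3.48 CPM). The first 5 groups overlapped one another, and AII 6 h overlapped its upper neighbour AII 24 h. EGF 6 h lay wholly below AII 6 h, and AII + EGF 6 h wholly below EGF 6 h.

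The libraries left out change these numbers at 6 h. The library labelled EGF 6 h replicate 1 held 4.46 CPM and its near-identical partner AII + EGF 6 h replicate 4 held 4.47 CPM. The pair of EGF 6 h replicates 2 and 6 held 14.7 CPM each. The library labelled AII 6 h replicate 6 stood at 5.18 CPM and the library labelled AII + EGF 6 h replicate 6 at 13.7 CPM. With all 48 libraries the group means were 13.1 CPM for AII, 9.75 CPM for EGF and 5.32 CPM for AII + EGF at 6 h, and the log2 change was -1.07 with EGF and -1.93 with AII + EGF. The interaction term depended on this choice: it was -0.21 with all 48 libraries, and 0.10 with only the 8 near-identical libraries left out, that is, with the opposite sign.

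For the other 9 genes a rise or fall counted as called when the p-value adjusted over all genes (Benjamini-Hochberg) was under 0.01, the fold reached 1.5 and the mean level exceeded 5 CPM. With AII + EGF at 6 h, OGG1 and MPG fell, no gene rose and 7 were not called, while 12% of all genes tested were called, 6.45% rose and 5.53% fell. The median log2 change of the 9 genes was -0.25, and that of all genes tested was -0.03. With AII at 6 h none of the 9 was called by edgeR or DESeq2, and none had an unadjusted p under 0.05, as 12.1% of all genes did (0.469% of all genes called). With EGF at 6 h again none was called by either tool and 1, OGG1, had an unadjusted p under 0.05, as 17.8% of all genes did (1.94% of all genes called). The 3 comparisons of a time share their control libraries.

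OGG1, which removes 8-oxoguanine from pairs with cytosine, fell 1.73-fold with AII + EGF at 6 h. The 4 controls stood at 21.6, 20.7, 18.8 and 21.7 CPM and the 4 AII + EGF libraries at 12.3, 12.3, 11.6 and 11.8 CPM, without overlap. Among all genes tested, 15.9% lay below their controls without overlap in this comparison. The log2 change was -0.79 ± 0.10 (adjusted p = 9.89e-08, edgeR). It remained called in each of the 8 fits that left out 1 library of either group, and with all 48 libraries it was -0.60.

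The 3 EGF libraries at 6 h held 14.6, 15.1 and 14.7 CPM of OGG1, also below every control, as in 8.88% of all genes. This change of -0.48 ± 0.11 log2 units (adjusted p = 0.00374) was 1.40-fold and so under the fold minimum. The 5 AII libraries stood at 15.8 to 19.7 CPM and overlapped the controls. Against AII alone the joint stimulus lowered OGG1 by -0.62 ± 0.10 log2 units (adjusted p = 6.64e-06, called), a call lost with all 48 libraries at -0.42 and with the 2 libraries of doubtful label kept at -0.40. Against EGF alone the difference was -0.31 ± 0.11 log2 units (adjusted p = 0.0687).

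At 24 h OGG1 was lower with AII + EGF by less than the fold minimum. The 6 AII + EGF libraries at 24 h ranged from 15.5 to 19.5 CPM and the 6 controls from 18.3 to 25.1 CPM, with overlap. The log2 change was -0.32 ± 0.08 (adjusted p = 0.00507, 1.25-fold). OGG1 shares 11104 bases with TADA3 and 12601 bases with CAMK1, both on the other strand. TADA3, a subunit of histone acetyltransferase complexes, fell from 62.9 ± 7.76 to 32.8 ± 2.22 CPM with AII + EGF at 6 h (log2 change -0.94 ± 0.14, adjusted p = 1.02e-06), and CAMK1 changed by 0.29 ± 0.14 (adjusted p = 0.117). Whether the counting used strand is not stated, and without it reads of OGG1 and its partners in the shared stretch cannot be told apart.

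MPG, which removes alkylated purines and hypoxanthine, fell 1.58-fold with AII + EGF at 6 h. The controls stood at 13.99, 13.7, 10.0 and 14.2 CPM and the AII + EGF libraries at 8.54, 8.03, 7.17 and 9.14 CPM. These ranges did not overlap, as in 15.9% of all genes for values below control, though the lowest control came near. The log2 change of -0.66 ± 0.18 (adjusted p = 0.00321) was less secure than that of OGG1: the call was lost in 4 of the 8 fits without 1 library. With all 48 libraries it was -0.58, under the fold minimum.

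At 24 h MPG lay on the other side of control. The 6 AII + EGF libraries ranged from 14.5 to 22.3 CPM and the 6 controls from 9.18 to 20.6 CPM, with overlap, and the log2 change was 0.44 ± 0.14 (adjusted p = 0.0218, not called). The joint response of MPG was 1.09 ± 0.22 log2 units higher at 24 h than at 6 h, which was called (adjusted p = 0.000272), where 11.6% of all genes were. The last 461 bases of MPG overlap NPRL3, a GATOR1 subunit on the other strand, which fell from 20.01 ± 2.87 to 7.61 ± 0.679 CPM with AII + EGF at 6 h (log2 change -1.39 ± 0.15, adjusted p = 2.85e-09).

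**Figure D2:**
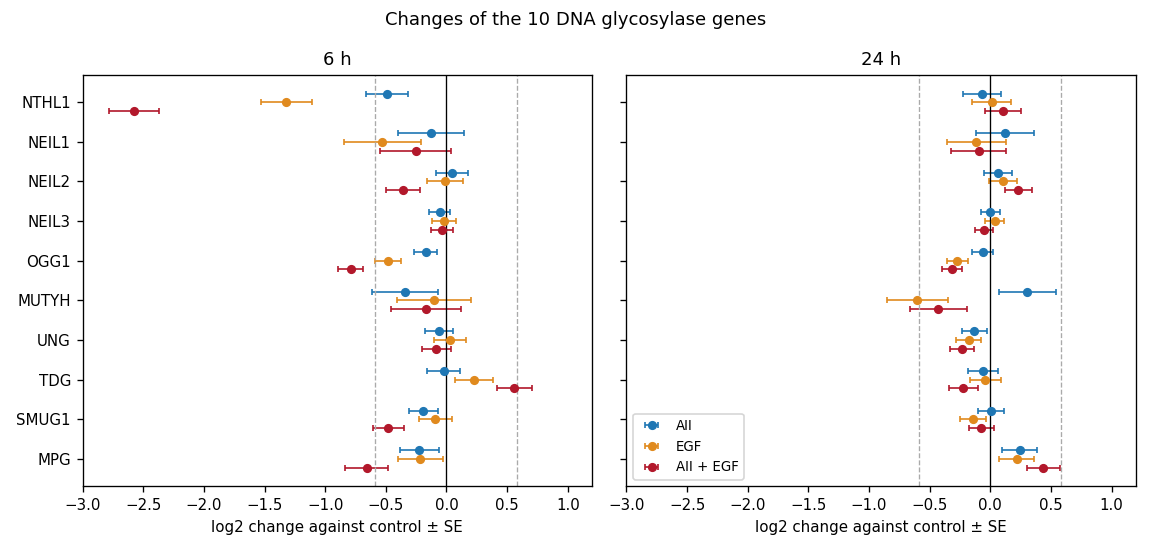
Log2 change against control (horizontal axis, points with SE bars) of the 10 glycosylase genes (vertical axis) under AII, EGF and AII + EGF, at 6 h on the left and 24 h on the right. Dashed lines mark a change of 1.5-fold, and NTHL1, OGG1 and MPG lie beyond it with AII + EGF at 6 h, while TDG lies on the opposite side at 0.56.

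TDG takes thymine and uracil from mispairs with guanine and removes the oxidised forms of methylcytosine in active DNA demethylation. Its direction was opposite to that of NTHL1. The 4 AII + EGF libraries at 6 h stood at 125, 129, 154 and 148 CPM and the 4 controls at 93.2, 82.7, 99.4 and 101 CPM, without overlap, as in 17.4% of all genes for values above control. The log2 change was 0.56 ± 0.15 (adjusted p = 0.00245) and the fold 1.47, just under the minimum, so TDG was not called. With all 48 libraries the change was 0.60 and passed. The EGF libraries (108 to 112 CPM) lay above every control too, as in 13.2% of all genes, with a log2 change of 0.23 ± 0.16 (adjusted p = 0.488).

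At 24 h the TDG levels overlapped between AII + EGF (47.3 to 70.2 CPM) and control (47.2 to 87.6 CPM), with a log2 change of -0.22 ± 0.12 (adjusted p = 0.197). The joint response at 24 h minus that at 6 h was -0.78 ± 0.19 log2 units and was called (adjusted p = 0.00171), a call lost when libraries were scaled by their totals alone (adjusted p = 0.0200) and when the 2 libraries of doubtful label were kept. The processed pseudogene TDGP1 is listed in the table and could share reads with TDG.

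UNG and SMUG1 both remove uracil from DNA, UNG mainly at replication forks and SMUG1 also as a glycosylase of hydroxymethyluracil. UNG, the most abundant member, stood at 148 to 204 CPM with AII + EGF and at 164 to 203 CPM in control at 6 h, and its log2 change of -0.08 ± 0.12 was not called (adjusted p = 0.648). SMUG1 stood at 21.4, 26.4, 28.3 and 28.2 CPM with AII + EGF against 36.6, 33.96, 34.5 and 40.3 CPM in control. These groups did not overlap, as in 15.9% of all genes for values below control. The log2 change was -0.48 ± 0.13 (adjusted p = 0.00324, edgeR), but at 1.39-fold it missed the fold minimum. At 24 h the change of SMUG1 was -0.07 ± 0.10. The processed pseudogenes UNGP1, UNGP3 and SMUG1P1 are listed in the table and could share reads with their parent genes.

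**Figure D3:**
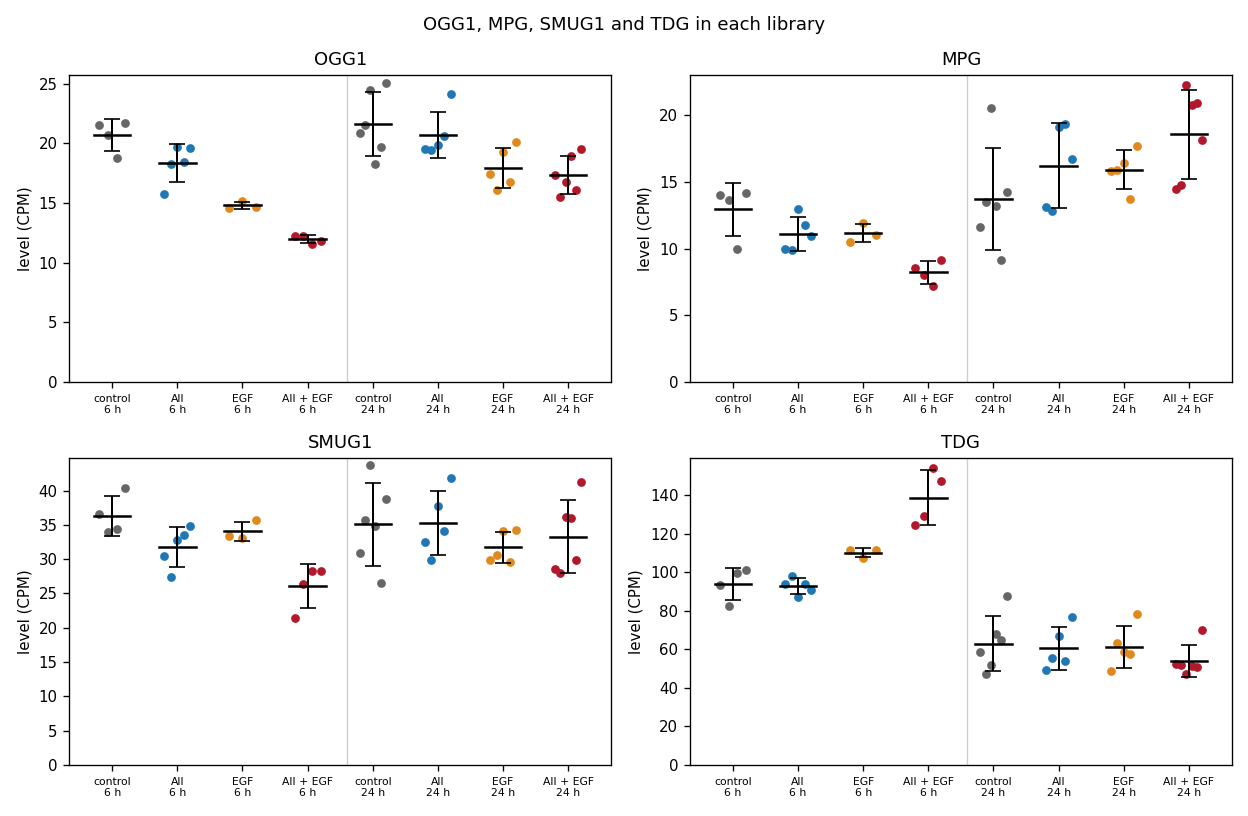
Levels in CPM (vertical axes, starting at 0) of OGG1, MPG, SMUG1 and TDG in each of the 38 libraries, by group (horizontal axes), with mean ± SD as black bars. The 4 AII + EGF libraries at 6 h lie below every control of that time for OGG1, MPG and SMUG1 and above every control for TDG. Of all genes, 15.9% lie below and 17.4% above in this way.

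The NEIL genes share the substrates of NTHL1 in part, NEIL1 and NEIL2 acting on oxidised pyrimidines and ring-opened purines, and NEIL3 being found mainly in dividing cells. NEIL2 had the lowest adjusted p of the NEIL genes with AII + EGF at 6 h. Its 4 libraries stood at 9.81, 9.26, 10.8 and 11.5 CPM and the controls at 13.99, 12.7, 14.03 and 12.3 CPM. The groups did not overlap, as in 15.9% of all genes for values below control. The log2 change of -0.36 ± 0.14 had an adjusted p of 0.0462 (edgeR), above the threshold. NEIL3 stood between 40.1 and 52.4 CPM in all 16 libraries at 6 h, with a joint log2 change of -0.04 ± 0.09. NEIL1 had a joint change of -0.25 ± 0.29, with an SE that reflects its spread of 9.86 to 29.5 CPM at 6 h. With EGF its 3 libraries (11.95 to 12.7 CPM) lay below every control, as in 8.88% of all genes. That log2 change was -0.53 ± 0.32 (adjusted p = 0.405, edgeR), with 1 control at 29.5 CPM and the others at 13.1 to 14.5 CPM. MUTYH, which takes adenine from pairs with 8-oxoguanine, had only 13 to 67 counts per library and stayed under 5 CPM, so no change of it could be called. Its joint change at 6 h was -0.17 ± 0.29.

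At 24 h none of the 10 members was called by edgeR or DESeq2 under any stimulus. With AII none had an unadjusted p under 0.05, as 1.75% of all genes did (0% of all genes called). With EGF 2 had one, OGG1 and MUTYH, as did 14.7% of all genes (0.245% called). With AII + EGF 4 had one, OGG1, MPG, UNG and NEIL2, as did 32.1% of all genes (2.9% called). The interaction of AII and EGF was not called for any of the other 9 genes at 6 h or any of the 10 at 24 h by either tool, and none of these had an unadjusted p under 0.05, as 9.76% of all genes did at 6 h and 3.36% at 24 h (0.229% and 0% of all genes called). Against EGF alone at 6 h no other member was called by edgeR or DESeq2 (5 at an unadjusted p under 0.05, as 23.5% of all genes, of which 2.92% were called), and against AII alone OGG1 was (7.6% of all genes called). DESeq2 added TDG there, whose change in edgeR was 0.58 ± 0.14 (adjusted p = 0.00127), just under the fold minimum.

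Without a stimulus, 2 members differed between the times. NEIL1 rose by 1.08 ± 0.27 log2 units from 6 h to 24 h (adjusted p = 0.00212), where 4.77% of all genes rose, and UNG fell by 0.61 log2 units (SE 0.11, adjusted p = 5.93e-05), where 1.96% fell. The UNG controls stood at 203, 177, 193 and 164 CPM at 6 h and at 96.6 to 148 CPM at 24 h, without overlap, as in 7.05% of all genes that were lower. The NEIL1 controls stood at 13.1, 13.9, 14.5 and 29.5 CPM at 6 h and at 25.01 to 50.7 CPM at 24 h, and overlapped through 1 library. TDG was also lower at 24 h, by -0.58 ± 0.13 log2 units (adjusted p = 0.000902, 1.49-fold). With all 48 libraries the log2 difference was 0.77 for NEIL1 and -0.49 for UNG, and neither was called. The UNG call was lost in 5 of 10 and the NEIL1 call in 3 of 10 fits without 1 library.

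The sample titles form 1 sequence of numbers. It was divided here into 8 title runs, stretches of consecutive titles that pass once through all 4 conditions at 1 time, so that run and time cannot be told apart. NEIL1 differed between runs of the same time over all stimuli: at 6 h its mean was 20.3 CPM in run 1 (n = 4), 12.5 CPM in run 4 (n = 7), 12.8 CPM in run 5 (n = 4) and 29.5 CPM in the only library of run 7. At 24 h it was 47.9 CPM in run 2 (n = 7), 25.8 CPM in run 3 (n = 7), 33.9 CPM in run 6 (n = 4) and 40.7 CPM in run 8 (n = 4). The lowest library of run 2 (37.3 CPM) stood above the highest of run 3 (30.4 CPM), whatever the stimulus. Within run 4 NEIL1 stood at 13.5 CPM in control (n = 2), 12.5 CPM with EGF (n = 2) and 10.5 CPM with AII + EGF (n = 1). Within run 5 it stood at 14.5, 11.95 and 9.86 CPM (n = 1 each). The AII + EGF libraries of run 1 (19.6 CPM, n = 2) had no control of their run among those used. Within run 4 NTHL1 stood at 24.6 CPM in control, 15.1 CPM with AII and 7.51 CPM with EGF (n = 2 each), and at 3.16 CPM with AII + EGF (n = 1). Within run 5 the levels were 15.8, 16.8, 9.93 and 4.18 CPM (n = 1 each), so AII lay above control there. The AII libraries of run 1 (13.4 CPM, n = 2) also had no control of their run. The labels name no runs. Their part in the time difference of NEIL1 and in the 6 h changes of NEIL1 and NTHL1 was not tested.

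**Figure D4:**
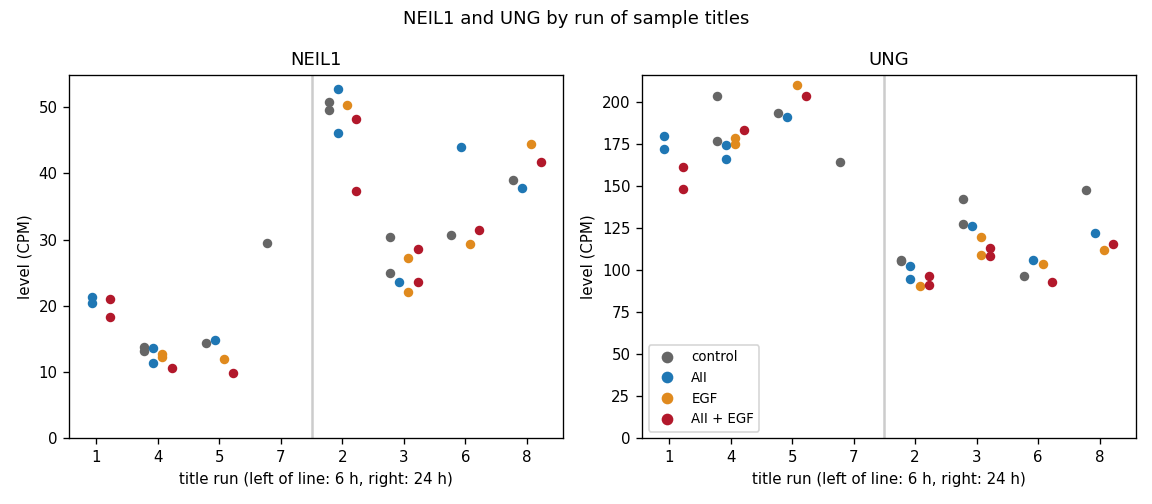
Levels in CPM (vertical axes, starting at 0) of NEIL1 and UNG in each of the 38 libraries by title run (horizontal axes, 6 h runs left of the grey line, 24 h runs right), coloured by stimulus. NEIL1 libraries of run 2 (37.3 to 52.8 CPM) all lie above those of run 3 (22.2 to 30.4 CPM), while UNG lies at 148 to 210 CPM in the 6 h runs and at 90.4 to 148 CPM in the 24 h runs.

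Downstream of the glycosylases, 32 further base excision repair genes were listed, and all were tested. With AII + EGF at 6 h 1 rose, 4 fell and 27 were not called, with a median log2 change of -0.06, where 6.45% of all genes rose and 5.53% fell. LIG3, the ligase of the short patch, rose from 60.2 ± 5.33 to 107 ± 4.76 CPM (n = 4 and 4, log2 change 0.83 ± 0.10, adjusted p = 1.36e-08). LIG1, the ligase of replication and of the long patch, fell from 126 ± 10.7 to 73.9 ± 7.66 CPM (log2 change -0.77 ± 0.09, adjusted p = 8.28e-09). POLL, a gap-filling polymerase, fell by 0.74 log2 units (SE 0.11, adjusted p = 2.07e-06), XRCC1, the scaffold that binds LIG3, by 0.68 (SE 0.14, adjusted p = 0.000143) and POLD1, the catalytic subunit of polymerase delta, by 0.59 (SE 0.11, adjusted p = 2.81e-05). At 1.51-fold POLD1 passed the fold minimum narrowly, and it was not called with DESeq2, RLE factors, all 48 libraries, the 2 libraries of doubtful label kept, title runs as a block or without runs 7 and 8. For all 5 genes the joint and control libraries did not overlap, as in 17.4% of all genes for higher and 15.9% for lower values.

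APEX1, POLB and PARP1 were not called in the same comparison. The log2 change was -0.04 ± 0.13 for APEX1, the main AP endonuclease, -0.07 ± 0.14 for POLB, the main short-patch polymerase, and 0.14 ± 0.10 for PARP1, the break sensor, with adjusted p-values of 0.857, 0.749 and 0.301. MBD4, a further thymine glycosylase outside the 10 members, changed by -0.30 ± 0.10 (adjusted p = 0.0196). APLF (-0.80 ± 0.19) and PARP3 (-0.67 ± 0.17) had adjusted p-values of 0.00123 and 0.00269 but control means under 5 CPM.

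None of the 32 genes was called by edgeR or DESeq2 in the other comparisons with control. Unadjusted p-values under 0.05 were found at 6 h for 6 genes with AII and 5 with EGF (12.1% and 17.8% of all genes). At 24 h they were found for 0 with AII, 4 with EGF and 13 with AII + EGF (1.75%, 14.7% and 32.1% of all genes). LIG3 with EGF at 6 h changed by 0.49 ± 0.10 (adjusted p = 0.00160), under the fold minimum. At 24 h with AII + EGF the 5 genes called at 6 h had changes between -0.25 (LIG1) and 0.26 (LIG3). The difference between the times was called for 4 of the 32, where 11.6% of all genes were, namely POLL (0.93 ± 0.14, adjusted p = 5.17e-06), POLD1 (0.79 ± 0.14, adjusted p = 3.16e-05), XRCC1 (0.72 ± 0.18, adjusted p = 0.00222) and PARP3 (0.78 ± 0.22, adjusted p = 0.00688).

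**Figure D5:**
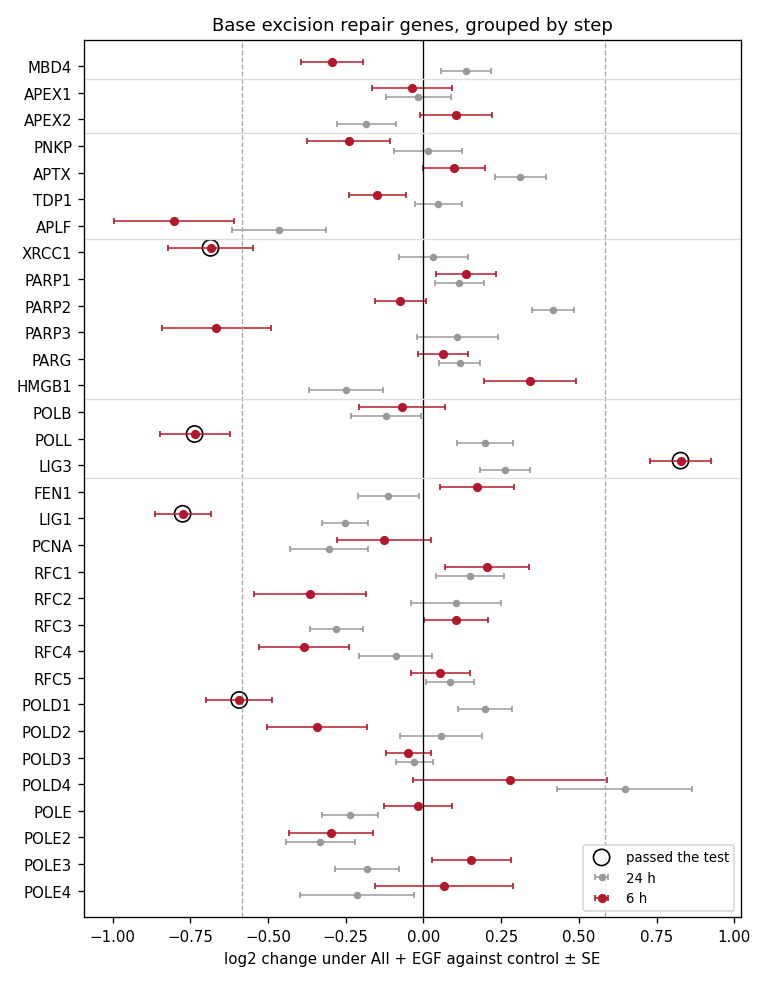
Log2 change under AII + EGF against control (horizontal axis, points with SE bars) of the 32 base excision repair genes (vertical axis, separated by step of the pathway), at 6 h in red and at 24 h in grey. Rings mark the 5 genes called at 6 h, LIG3 to the right at 0.83 and XRCC1, POLL, LIG1 and POLD1 to the left, and dashed lines mark a change of 1.5-fold.

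TSC2, whose start lies beside that of NTHL1, also fell with AII + EGF at 6 h, from 145 ± 18.3 to 81.8 ± 7.48 CPM (log2 change -0.83 ± 0.13, adjusted p = 4.77e-06). It encodes tuberin, an inhibitor of mTORC1 signalling. With EGF alone its change was -0.26 ± 0.14 (adjusted p = 0.348), and at 24 h with AII + EGF -0.32 ± 0.11 (adjusted p = 0.0338). SLC9A3R2, the next gene listed near NTHL1, changed by -0.06 ± 0.17 (adjusted p = 0.827). TOE1, which starts 50 bases from MUTYH on the other strand, changed by 0.14 ± 0.16 with AII + EGF at 6 h (adjusted p = 0.552) and fell by 0.77 log2 units at 24 h (SE 0.13, adjusted p = 5.68e-05). MAN2C1, which shares 1324 bases with NEIL1, changed by -0.15 ± 0.18 (adjusted p = 0.551).

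Over the 38 libraries and 11763 genes with a mean of at least 5 CPM, the genes whose log2 levels followed NTHL1 most closely were RRNAD1 (Pearson's r = 0.961), ACTR1B (0.953), DNAL4 (0.953), MAN1B1 (0.952) and ZFYVE19 (0.951). The libraries share groups and runs, so these values describe likeness only. Among the members r with NTHL1 was 0.842 for OGG1, 0.782 for MPG, 0.671 for NEIL2, 0.656 for SMUG1 and 0.500 for NEIL1. Many other genes followed NTHL1 more closely: of the 11763 genes these members ranked 231, 509, 1143, 1242 and 2167. The value was negative for NEIL3 (-0.269), UNG (-0.420) and TDG (-0.724). RRNAD1 levels went from 37.4 CPM in control to 13.1 CPM with AII + EGF at 6 h and stood at 39.4 and 43.7 CPM at 24 h. DNAL4, a dynein light chain, went from 16.02 to 5.16 CPM at 6 h and stood at 14.6 and 14.96 CPM at 24 h.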

How the data were processed

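Poly(A) RNA of the AT1R-expressing HEK293 clone was sequenced in 48 libraries. Per the labels and the methods of the study, the authors mapped paired-end reads to hg38 with HISAT2 2.1.0 and counted them per Ensembl gene with featureCounts, and the deposited values are raw counts. The sources used here give neither the strand setting nor the handling of multi-mapping reads. Groups were read from the sample labels, and replicate numbers follow the order of deposition.

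Members and gene lists were chosen with earlier results of these data known. The counts of 38 libraries were fitted by edgeR 4.0.16 (R 4.3.3, filterByExpr by group, 19626 of 60610 genes kept, TMM factors, 1 quasi-likelihood fit without covariates), with p-values adjusted over all genes tested after Benjamini-Hochberg. A call needed an adjusted p under 0.01, a fold of 1.5 or more and over 5 CPM on average, in control for a fall and in the treated group for a rise (for interactions and differences of responses in the highest group). Log2 changes are given ± SE, means ± SD. Library totals were 17.8 to 30.0 M counts, and no interval covers more than the spread of libraries. Near-identical libraries were found from the chi-square of each pair, divided by its degrees of freedom, over genes with at least 100 counts in a pair. CPM of the libraries left out come from the scaling of all 48.

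The steps were tested on simulated data. The named genes were the 10 members, called base excision repair genes (at most 8, by size), APEX1, POLB, LIG3, XRCC1, PARP1 and MBD4, at most 3 called S phase genes, TSC2, SLC9A3R2, genes overlapping a member or starting near it, and the 5 genes with the highest correlation with NTHL1. APLF, PARP3 and NUDT1 were named after their values were seen. As alternatives, RLE factors, library totals, DESeq2 1.42.0 alone or jointly with edgeR, other filters and thresholds, only the groups compared, all 48 libraries, 40 libraries, title runs left out or as a block, and the removal of each library were used. Positions and promoter windows are from RefSeq (GRCh38.p14), and exon lengths from an annotation of another build, used for lengths only.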

Additional observations from a re-analysis of the deposited data

Results flagged for a closer look

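Of 70 groups of 4 or more libraries checked (10 genes in 7 groups), 7 held a library that stood far from the others, where chance gives about 1 in 20. For NTHL1, AII + EGF 6 h replicate 5 was the highest of its group at 4.18 CPM, the others lying at 3.16 to 3.32 CPM. For NEIL1, control 6 h replicate 6, the only library used from title run 7, stood at 29.5 CPM against 13.1 to 14.5 CPM. For MPG, control 6 h replicate 5 was the lowest at 10.0 CPM against 13.7 to 14.2 CPM. In AII + EGF 24 h, NEIL3 was highest in replicate 2 at 43.9 CPM (others 36.9 to 39.5 CPM), MUTYH in replicate 6 at 1.65 CPM (others 0.778 to 1.06 CPM) and TDG in replicate 6 at 70.2 CPM (others 47.3 to 52.4 CPM). OGG1 was highest in AII 24 h replicate 6 at 24.1 CPM (others 19.4 to 20.6 CPM). MUTYH and TDG stood apart in the same library, which like AII 24 h replicate 6 belongs to title run 8. Over all stimuli the mean of run 8 was 78.2 CPM for TDG, 22.2 CPM for OGG1 and 1.86 CPM for MUTYH. In the other runs at 24 h the means were 52.0 to 58.1 CPM for TDG, 18.3 to 19.1 CPM for OGG1 and 0.966 to 1.31 CPM for MUTYH. These flags may therefore mark a run and not a single library, which was not tested.

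The response to AII + EGF differed between the times for 2 of the 9 genes other than NTHL1, where 11.6% of all genes were called. The difference of the log2 changes, 24 h minus 6 h, was -0.78 for TDG (0.56 at 6 h and -0.22 at 24 h) and 1.09 for MPG (-0.66 at 6 h and 0.44 at 24 h). The difference for NEIL2 was 0.59 ± 0.18 and not called (adjusted p = 0.0126, edgeR), but it was called with DESeq2, library totals, only the groups compared, all 48 libraries, title runs as a block and without runs 7 and 8. Each time has its own controls, and time and title run cannot be told apart.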

How the results depend on the processing

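Scaling by library totals moved the median of all genes to -0.11 with EGF and -0.14 with AII + EGF at 6 h and to 0.12 for control 24 h against 6 h (-0.01, -0.03 and 0.03 with TMM), and it reversed the NTHL1 difference of the controls to 0.015 and left 1 member called there. That count was 0 with only the groups compared and 0 with all 48 libraries, and 0 to 3 without 1 library, 0 without control 6 h replicate 3. Without a fold minimum, 2 members were called with EGF and 5 with AII + EGF at 6 h and 1 with AII + EGF at 24 h (by adjusted p alone 3.37%, 23.4% and 10.39% of all genes passed), and of the repair list 1 with EGF at 6 h and 2 with AII + EGF at 24 h. With all 48 libraries no member was called against EGF at 6 h and 1 against AII. With 40 libraries, the 2 of doubtful label kept, 0 were called with EGF at 6 h, 0 against EGF and 1 against AII. The counts of members above 0 at 6 h include NTHL1, which its 6 h values chose. With AII + EGF at 24 h, 0 to 1 members were called without 1 library, the 1 without control 24 h replicate 3. The NTHL1 changes at 24 h are near 0 and changed sign: with EGF -0.00596 with title runs as a block and -0.068 to 0.12 without 1 library, with AII -0.15 to 0.043, and the difference of the controls -0.19 to 0.10. The fall of MPG was also not called without title runs 7 and 8 (-0.62, adjusted p = 0.0177) or with runs as a block (-0.52, adjusted p = 0.0209, edgeR). NTHL1 remained lowest with AII + EGF at 6 h with library totals and with all 48 libraries. The cause of these differences was not tested.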

Other observations

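NUDT1, which degrades oxidised purine nucleotides and so keeps them out of DNA, fell with AII + EGF at 6 h from 24.6 ± 5.17 to 15.2 ± 1.15 CPM (n = 4 and 4, log2 change -0.70 ± 0.19, adjusted p = 0.00383, edgeR). Its AII + EGF libraries lay below every control, as in 15.9% of all genes. At 24 h its change was 0.05 ± 0.15.

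Of 20 genes of S phase, 2 rose with AII + EGF at 6 h, none fell and 18 were not called, where 6.45% of all genes rose and 5.53% fell. RRM2, a subunit of ribonucleotide reductase, rose from 236 ± 28.5 to 482 ± 58.3 CPM (log2 change 1.03 ± 0.12, adjusted p = 3.82e-09), and CCNE2, a cyclin of the G1 to S transition, from 21.6 ± 1.62 to 35.5 ± 3.73 CPM (0.72 ± 0.18, adjusted p = 0.00141). The median log2 change of the 20 genes was -0.04. In control cells 1 of the 20, CCNE1, was called as a fall from 6 h to 24 h (log2 change -0.67 ± 0.15, adjusted p = 0.000848, edgeR), where 1.96% of all genes fell. By adjusted p under 0.01 alone 9 of the 20 were lower (45%), where 21.1% of all genes passed in either direction. The median of the list was -0.31 and its highest change -0.11, where the median of all genes tested was 0.03.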
